A study of Caenorhabditis elegans with 4 samples.

Results

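Binding peaks of the chromatin protein MEP-1 were examined in 2 broad domains of chromosome IV that are known to hold most piRNA genes of Caenorhabditis elegans. The left domain ran from 4500000 to 7000000 (2.5 Mb) and the right domain from 13500000 to 17200000 (3.7 Mb), on genome build WormBase WS180. A peak was counted in a domain when its midpoint lay there, with no use of its strength. This gave 409 peaks, 207 in the left domain and 202 in the right domain, of 1371 on IV and 11448 in the whole list. The other 962 peaks on IV served for comparison. No peak lay across a border of a domain. The right domain carried far fewer peaks per Mb than the rest of IV, whereas the left domain, which holds the most crowded 0.5 Mb of IV, did not differ from it beyond counting error.

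The peaks come from chromatin immunoprecipitation and sequencing (ChIP-seq) of embryos of a hermaphrodite strain, with 2 ChIP libraries, made with an affinity-purified goat antibody against enhanced green fluorescent protein (GFP), and 2 input libraries of the same strain. Both groups were strain OP70, an unc119(ed3) mutant made by bombardment with wgIs70, a mep-1::TY1 EGFP FLAG C fusion that also carries unc119, grown at 20 °C and fixed with 2% formaldehyde. Binding was thus read on the tagged transgenic protein, in whole embryos with all their cell types mixed. The data used here are 1 deposited list that combines all libraries, so values per library were not analysed here, no test between samples was possible, and sequencing depth is unknown.

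piRNAs are short RNAs of the germline that load the Argonaute protein PRG-1 and guide the silencing of transposons and foreign sequences. In worms most of them are made one by one from very small genes, each with its own promoter motif, which crowd between and inside ordinary genes of chromosome IV. MEP-1 carries zinc fingers and works with LET-418, a chromatin remodeller, and HDA-1, a histone deacetylase, to keep germline genes silent in the soma. It is also known to take part in piRNA-directed silencing in the germline. The RefSeq gene table for assembly WBcel235 lists 14714 of its 15363 piRNA genes (95.8%) on IV, each 21 bp long. On IV, 14370 of them (97.7%) stand next to another piRNA gene in gene order, in runs of up to 167. That assembly is not the build of the peak list, so peaks were not matched to single genes, and the number of piRNA genes inside each domain was not counted here.

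The deposited value of a peak is a q-value, the corrected p-value of a comparison of ChIP reads with scaled control reads by the caller PeakSeq. The list held 11448 of 15494 tested regions (73.9%), a number back-calculated from the q-values. How many tested regions of the domains missed the list is unknown, so nothing is read from that share. Whole ChIP and scaled control reads were back-calculated from q, and this succeeded for all 409 peaks of the domains. Control reads are as the caller scaled them, so they are not raw input reads. Intervals are 95% intervals. Those of densities, their ratios, read counts and shares of peaks cover counting error only. Those of medians and their differences reflect the spread among peaks, with each peak taken as independent. All these intervals are narrower than the real uncertainty, since peaks cluster. The variance of peak counts in 100 kb bins was 3.37 times their mean in the left domain, 2.63 times in the right domain and 1.78 times in the rest of IV, where independent placement would give about 1.

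The left domain held 82.8 peaks per Mb (95% interval 71.9 to 94.9), against 85.4 per Mb (80.1 to 91.0) in the rest of IV. The ratio was 0.969 with an interval of 0.830 to 1.13. The right domain held 54.6 peaks per Mb (47.3 to 62.7), a ratio of 0.639 to the rest of IV (0.547 to 0.745). Left over right gave 1.52 (1.24 to 1.85). Both domains together held 66.0 per Mb, 0.772 times the rest (0.686 to 0.868). Without the 0.5 Mb bin of each domain with the most peaks, the ratio of the left domain to the rest of IV was 0.808 (0.671 to 0.967). That of the right domain was 0.589 (0.495 to 0.697). These bins were picked by their peak count and the rest of IV kept all its bins. Both ratios therefore had to fall, and no shortfall of the left domain is read from them. Both domains made up 35.5% of the length of IV and held 29.8% of its peaks.

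Chromosome centre and arms differ in gene content and recombination, so each domain was also set against its own kind of sequence. The left domain lies in the centre, taken as the middle 0.5 of IV up to its last peak, and the right domain in the right arm. Against the rest of the centre, at 81.8 peaks per Mb, the left domain had a ratio of 1.01 (0.857 to 1.19). Against the rest of the arms, at 89.8 peaks per Mb, the right domain had a ratio of 0.608 (0.512 to 0.719). Set against the left arm alone, at 90.9 per Mb, the ratio of the right domain was 0.600 (0.504 to 0.713).

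Bins of 0.5 Mb showed the same order with their own spread. The 5 bins of the left domain averaged 82.8 ± 33.1 peaks per Mb (SD between bins), and the 7 full bins of the right domain 54.9 ± 17.4. The 12 bins of the rest of the centre averaged 79.5 ± 13.9 and the 10 of the rest of the arms 92.6 ± 13.6. Below the median bin outside the domains (90 per Mb) lay 4 of the 5 bins of the left domain and all 7 of the right domain. Below the lowest such bin (52 per Mb) lay 0 bins of the left domain and 3 of the right. The bins of the left domain ranged from 52 to 138 per Mb, wider than the 52 to 108 per Mb of the bins outside the domains. Of the 5 bins with the fewest peaks among the 34 on IV, 1 lay in the left domain and 3 in the right.

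**Figure D1:**
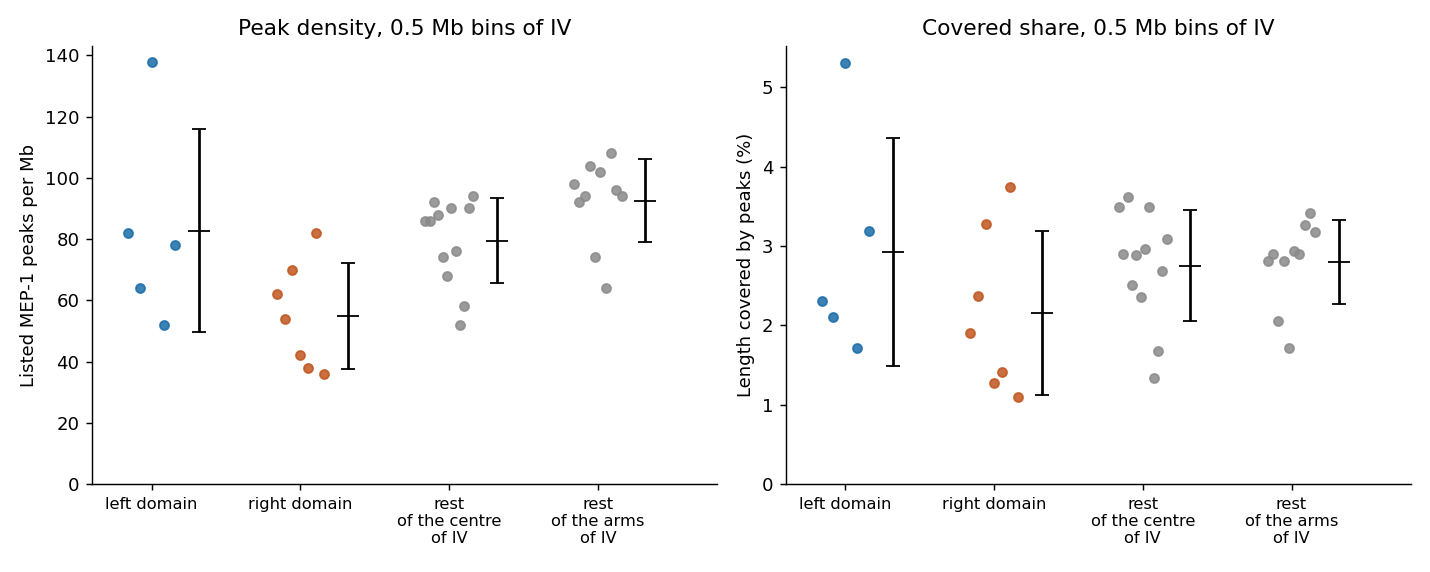
Peaks per Mb (left panel) and percent of the length covered by peaks (right panel) in 0.5 Mb bins of chromosome IV, by part. Points are bins, bars show the mean and SD between bins. The bins of the left domain reach up to 138 peaks per Mb, while the 7 of the right domain lie between 36 and 82.

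Covered length gave a smaller difference than peak number. Peaks covered 2.92% of the left domain (73.1 kb) and 2.13% of the right domain (78.8 kb), against 2.79% of the rest of IV. The share of the left domain was 1.37 times that of the right (1.07 to 1.76), and that of the right domain 0.765 times that of the rest (0.624 to 0.936). These intervals also take in the spread of widths. The interval of left over right included 1 in 4 of 9 alternatives, among them borders moved inwards by 0.25 Mb (1.24, 0.941 to 1.64) and the fullest bins left out (1.24, 0.926 to 1.66). Assignment by any overlap, also among the 9, could not differ from the main value.

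The shortfall of the right domain exceeded counting error among peaks narrower than 400 bp and not among wider ones. Peaks under 200 bp came at 12.7 per Mb in the right domain, against 24.0 per Mb in the rest of IV, a ratio of 0.530 (0.380 to 0.724). Peaks from 200 to under 400 bp had a ratio of 0.579 (0.454 to 0.731), at 23.0 against 39.7 per Mb. Peaks of at least 400 bp came at 18.9 per Mb in the right domain and 21.8 per Mb in the rest, a ratio of 0.870 whose interval (0.657 to 1.14) includes 1. The left domain showed ratios of 0.818 (0.590 to 1.11), 0.958 (0.759 to 1.20) and 1.16 (0.864 to 1.53) in the same 3 classes. Against the rest of the arms, which are rich in narrow peaks, the right domain had 0.392 times the density of peaks under 200 bp (0.277 to 0.545) and 0.907 times that of peaks of at least 400 bp (0.660 to 1.24). The difference between width classes was not tested, and wider peaks also hold more reads.

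**Figure D2:**
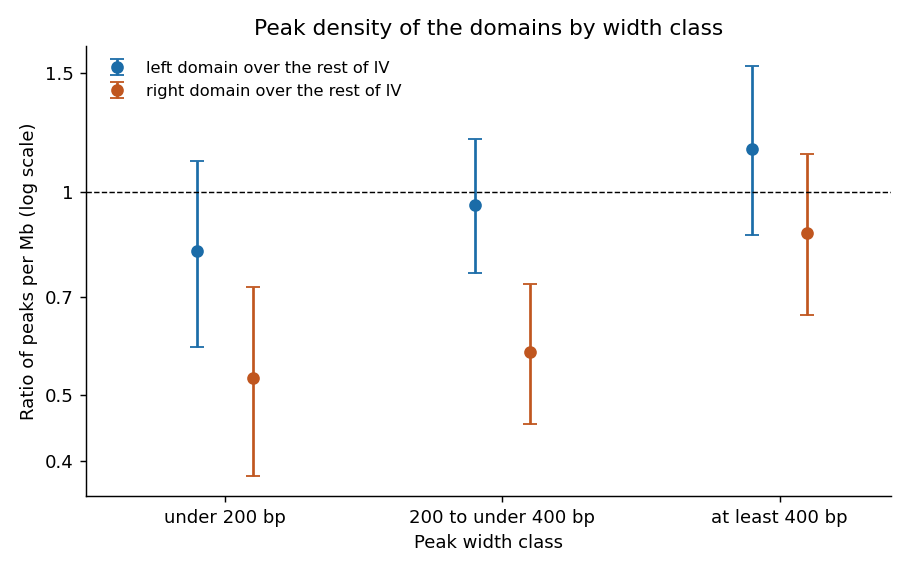
Peaks per Mb in each domain divided by peaks per Mb in the rest of chromosome IV, for 3 classes of peak width, on a log axis. Bars are exact 95% intervals for counting error, and the dashed line marks equal density. The right domain lies at 0.530 and 0.579 in the narrower classes and at 0.870 for peaks of at least 400 bp.

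At the median, single peaks of the domains were about as strong as those elsewhere on IV and slightly wider. The highest −log10 q was 155.8 in the domains and 72.6 in the rest of IV. The median width was 307 bp in the left domain (285 to 330), 317 bp in the right domain (284 to 359) and 283.5 bp in the rest of IV (273 to 295). On the −log10 scale the median q was 4.41 in the left domain (3.70 to 4.93), 4.21 in the right domain (3.61 to 4.78) and 4.46 in the rest (4.11 to 4.79). These 3 intervals overlap. Over both domains the median width was 309 bp, 25.5 bp above the rest (8.14 to 49.0). A −log10 q of at least 10 was reached by 84 of the 409 domain peaks (20.5%), against 204 of the 962 in the rest of IV (21.2%) and 23.4% of the whole list. The 37 domain peaks among the best 10% of the whole list by q were 9.05% of the domain peaks, against 8.63% in the rest of IV.

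In the right domain strong and weak peaks were both sparser than in the rest of IV. Peaks with a −log10 q of at least 10 came at 11.9 per Mb there, against 18.1 per Mb in the rest of IV, a ratio of 0.657 (0.463 to 0.913). Weaker peaks came at 42.7 per Mb, against 67.3 per Mb, a ratio of 0.635 (0.531 to 0.754). Against the rest of the arms the ratio was 0.721 for strong peaks, with an interval (0.488 to 1.05) that includes 1, and 0.582 (0.480 to 0.703) for weaker peaks. In the left domain the ratios to the rest of IV were 0.883 (0.613 to 1.24) for strong and 0.993 (0.834 to 1.18) for weaker peaks.

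Enrichment over the control was modest in both domains. The median ratio of ChIP to control reads was 2.78 in the left domain (2.61 to 3.00), 3.03 in the right domain (2.90 to 3.29) and 3.09 in the rest of IV (3.00 to 3.16). Both domains together lay 0.14 below the rest (difference -0.14, interval -0.29 to -0.01). Without the bin of each domain with the most peaks the difference was -0.02 (-0.18 to 0.26). Single ratios ran from 1.77 to 20 in the left domain and from 1.44 to 12.1 in the right. The ratio of 20 came from a peak of 8 bp, from 6414949 to 6414956, with 20 ChIP reads against 1 control read, so it rests on a control of a single read.

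Among peaks from 300 to under 400 bp both domains stood lower, but this was not general across widths. In peaks from 300 to under 400 bp the median ratio was 2.67 in the left domain (46 peaks, 2.33 to 3.17), 2.51 in the right domain (40 peaks, 2.21 to 3.00) and 3.12 in the rest of IV (195 peaks, 2.88 to 3.41). ChIP reads had medians of 70.5, 64.5 and 76 in these 3 parts, and control reads medians of 26, 26 and 24. Over both domains the median ratio was 2.58 and lay 0.54 below the rest (difference -0.54, interval -0.93 to -0.10). This did not hold for both domains in the next class, where peaks from 400 to under 600 bp had median ratios of 2.91 in the left domain, 3.50 in the right and 3.47 in the rest. In peaks from 200 to under 300 bp the medians were 2.50, 3.00 and 2.94 in the same order. The right domain lay below the rest in no other width class examined, and the left domain only in those from 200 to under 1000 bp.

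**Figure D3:**
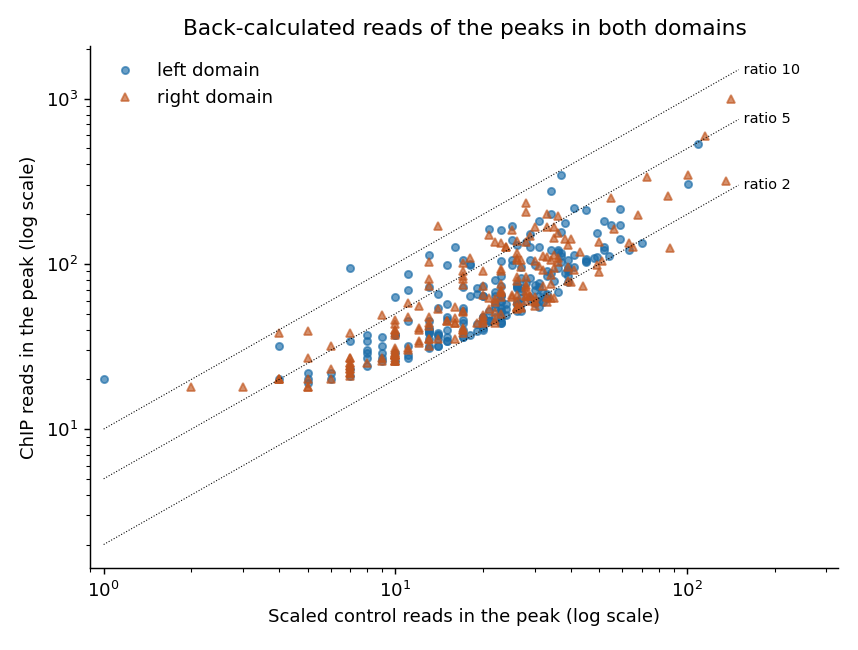
ChIP reads against scaled control reads, both back-calculated and on log axes, for the 207 peaks of the left domain (circles) and the 202 of the right domain (triangles). Dotted lines mark ratios of 2, 5 and 10. The peak with the most reads, 1002 ChIP against 141 control, belongs to the right domain.

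The reads held in peaks followed their number. Peaks of the left domain held 6505 ChIP and 2068 control reads per Mb of the domain, those of the right domain 4535 and 1340, and those in the rest of IV 6639 and 1995. Summed over all peaks the ratio of ChIP to control was 3.15 in the left domain, 3.38 in the right and 3.33 in the rest. The median control per 100 bp of peak was 7.37 reads in the left domain (7.07 to 7.64), 6.73 in the right (6.41 to 7.03) and 7.46 in the rest (7.29 to 7.62). The control was thus lower in peaks of the right domain, where peaks were fewest. Its part in the density, and how well reads map in the domains, were not tested.

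The profile along the left domain was uneven. Its 5 bins of 0.5 Mb held 41, 32, 69, 26 and 39 peaks from left to right. The bin of 69 peaks, from 5500001 to 6000000, was the fullest on IV, and peaks covered 5.31% of it. Its peaks were weak at the median, with a median ratio of 2.64 and a median −log10 q of 3.45. Still, 8 of them reached a −log10 q of 10, close to the mean of 8.35 such peaks over the 34 bins of IV. The 2 densest 100 kb bins of the left domain lay there. From 5900001 to 6000000 there were 21 peaks, whose median ratio was 2.50 (1.96 to 5.56), and from 5500001 to 5600000 there were 19, with a median of 2.46 (1.91 to 3.75). None of the 19 reached a −log10 q of 10, against 4 of the 21. The sparsest bin, from 4900001 to 5000000, held 1 peak, and those from 5200001 to 5300000 and from 5400001 to 5500000 held 2 each.

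The right domain was sparse over most of its length. Its 7 full bins of 0.5 Mb held 31, 27, 35, 21, 19, 41 and 18 peaks. Bins of 100 kb with 3 peaks or fewer made up 4 of 25 (16%) in the left domain and 15 of 37 (40.5%) in the right, against 9 of 112 (8.04%) in the rest of IV. The stretch from 16400001 to 16500000 stood apart with 21 peaks, which covered 11300 bp. Its median ratio was 3.03 (1.78 to 6.06), and 5 of its peaks reached a −log10 q of 10. The next fullest bins, from 14600001 to 14700000 and from 14800001 to 14900000, held 10 peaks each. Single peaks were listed from 14100001 to 14200000, from 16200001 to 16300000 and from 16500001 to 16600000.

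**Figure D4:**
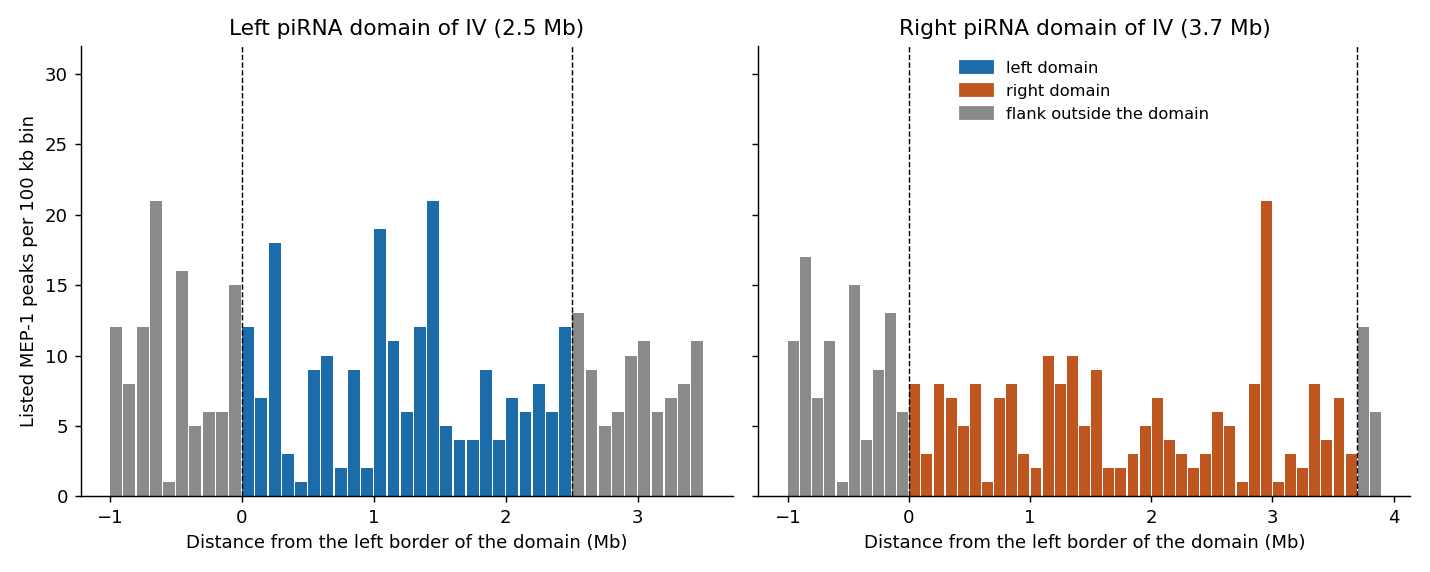
Number of listed peaks per 100 kb bin against the distance from the left border of each domain in Mb, with up to 1 Mb of flanking sequence in grey and dashed lines at the borders. The left domain has bins of 18, 19 and 21 peaks, while in the right domain 15 of 37 bins hold 3 peaks or fewer and 1 bin holds 21.

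Long stretches without a peak were common in the right domain. Gaps over 50 kb numbered 7 in the left domain (23.0% of its length) and 20 in the right (45.8%), against 27 in the rest of IV (17.0%). The longest of the right domain ran from 16201168 to 16380367 (179 kb) and from 16502253 to 16656167 (154 kb), on either side of the crowded stretch at 16.4 Mb. The longest in the left domain ran from 4930992 to 5076391 (145 kb). The median gap was 4590.5 bp in the left domain (3516 to 6334), 5808 bp in the right (4012 to 7199) and 5269 bp in the rest (4569 to 5895), with overlapping intervals.

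Whether close neighbours were rarer in the domains depended on the distance used. A neighbouring midpoint at most 2000 bp away was found for 42.5% of peaks in the left domain (35.7 to 49.6), 36.1% in the right (29.5 to 43.2) and 45.2% in the rest of IV (42.0 to 48.4). Over both domains the share was 39.4%, and the difference from the rest, -5.85 percentage points, had an interval of -11.6 to 0.00. Within 1000 bp the difference was -7.75 points (-12.0 to -3.19), and within 5000 bp it was -1.14 points (-6.66 to 4.20). Among peaks of at least 200 bp the difference at 2000 bp was 0.55 points (-5.86 to 7.12). Chains of 5 or more peaks with steps of at most 2000 bp numbered 2 in the left domain, 0 in the right and 7 in the rest. They held 5.31% of the peaks of the left domain, 0% of those of the right and 3.85% of those of the rest. The chains of the left domain ran from 5598507 to 5604821, with 5 peaks and a median ratio of 2.10, and from 5969185 to 5975701, with 6 peaks and a median ratio of 2.27.

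The right domain held the peak with the most significant enrichment of the whole list. The lowest q of the whole list, 1.48e-156, belonged to the peak from 14032473 to 14034731, whose nearest neighbour lay 13370 bp away. It held 1002 ChIP reads (941 to 1066) against 141 control reads, a ratio of 7.11. The peak from 16491337 to 16493368 ranked 27 in the list (q = 3.38e-76), with 594 ChIP reads (547 to 644) and a ratio of 5.17. It sits in the crowded stretch at 16.4 Mb. The peak from 14464044 to 14464512, only 469 bp wide, reached a ratio of 8.36 with 234 ChIP reads. At 13887165 to 13888446 the ratio was 4.60, with 336 ChIP reads.

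The highest ratio in the right domain among peaks with at least 100 ChIP reads was 12.1. It belonged to the peak from 15472345 to 15472786, with 170 ChIP reads (145 to 198) against 14, and another peak midpoint lay 963.5 bp away. The peak from 16845128 to 16845667 followed the first 2 in ratio at 7.85. The highest such ratio in the rest of IV was 13.6, at 3294552 to 3294978. The widest peak of the right domain, from 14620469 to 14622787 (2319 bp), had a ratio of only 2.35, with 319 ChIP against 136 control reads.

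Very broad peaks were rare in both domains. Peaks over 1000 bp numbered 2 in the left domain (0.966% of its peaks, 0.117 to 3.45), 9 in the right (4.46%, 2.06 to 8.29) and 24 in the rest of IV (2.49%, 1.60 to 3.69). The left-over-right ratio per Mb was 0.329 with an interval of 0.0346 to 1.59, so at these counts a difference was not detectable.

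The strongest peaks of the left domain lay in its first and last 0.5 Mb. The lowest q was 4.21e-65, for the peak from 6645601 to 6647565, also the widest of the domain at 1965 bp, with 530 ChIP reads (486 to 577) against 109 and a ratio of 4.86. A second strong peak lay 2122.5 bp from it, midpoint to midpoint, from 6648282 to 6649129, with a ratio of 5.88. The peak from 4749871 to 4750372 was narrower (502 bp) and more enriched, with 344 ChIP reads (309 to 382) against 37 and a ratio of 9.30. Ratios of 8.12 (276 ChIP reads) and 5.34 (219 ChIP reads) belonged to the peaks at 6790393 to 6791140 and at 4660334 to 4660930. The 4725443 to 4725742 peak, with 113 ChIP reads, had a ratio of 8.69. None of these 6 lay in the crowded stretch from 5500001 to 6000000.

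The weakest peaks sat at the limit of the list. In the left domain the highest q was 0.00979, at 5506792 to 5506984, with 37 ChIP against 18 control reads. In the right domain it was 0.00866, at 16867931 to 16867964, with 21 against 7. Peaks under 50 bp made up 4.35% of the left domain (2.01 to 8.09), 5.94% of the right (3.11 to 10.1) and 8.42% of the rest of IV (6.74 to 10.4).

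Counts of peaks just inside and just outside a border were compared where both sides had a full 0.5 Mb. They differed most at the left border of the right domain. The 0.5 Mb inside the left border of the right domain held 31 peaks, against 47 in the 0.5 Mb outside it. At the left domain the counts inside and outside were closer, 41 and 48 at the left border and 39 and 43 at the right border. No intervals were computed for these counts, so no general drop at the borders is read from them. Of the peaks nearest to a border, those just inside the left domain lay from 4506658 to 4506818 (q = 0.000425) and from 6996256 to 6996469 (q = 0.00337). Those just outside it lay from 4477136 to 4477426 (q = 0.000228) and from 7011579 to 7011620 (q = 0.00271). At the right domain the peaks just inside lay from 13502880 to 13503444 (q = 7.53e-10) and from 17120575 to 17120828 (q = 2.05e-06). Those just outside lay from 13487133 to 13487199 (q = 0.000545) and from 17206419 to 17206809 (q = 0.000984). A peak among the strongest of IV outside the domains, from 17278228 to 17279234 (q = 1.81e-63), lay in the short remainder between the right domain and the chromosome end.

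The right arm of IV was set beside the right arms of the other chromosomes. An arm was taken as the outer 0.25 of the length up to the last peak. The right arm of IV, most of which is the right domain, held 58.9 peaks per Mb, against 90.9 in the left arm, a ratio of 0.647 (0.551 to 0.759). On the other 5 chromosomes the right-over-left ratio lay between 0.965 on X (0.848 to 1.10) and 1.10 on III (0.966 to 1.26), and every interval included 1. On V the arms were equal at 81.9 per Mb each. IV was also sparse outside its right arm. Its centre, which includes the left domain, held 82.1 peaks per Mb, against 116 (X) to 168 (III) in the other centres. The left arm of IV lay below every other left arm except that of V. On IV alone the centre lay below the left arm. How the caller scaled the control along a chromosome is not stated in the sources used here, and its part in the arm and centre values was not tested.

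**Figure D5:**
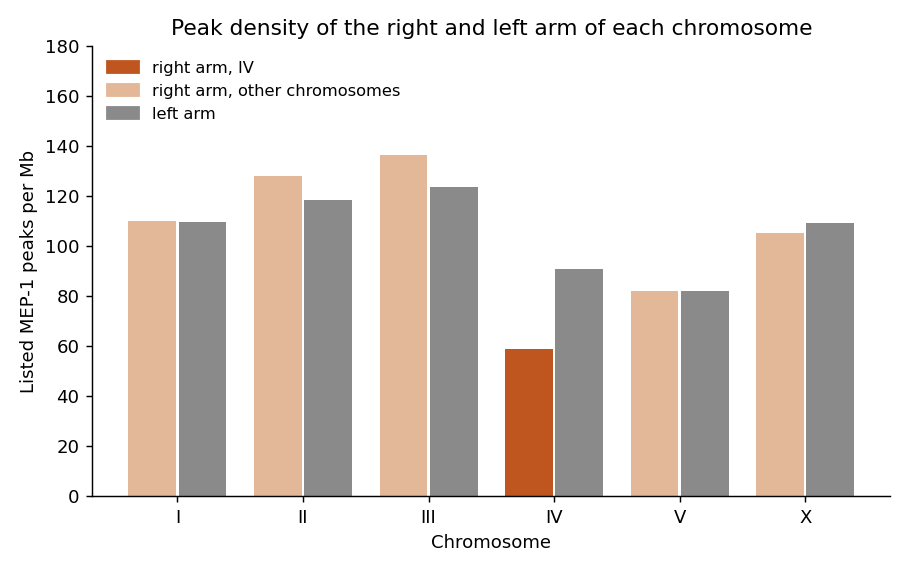
Listed peaks per Mb in the right arm (first bar, orange) and the left arm (second bar, grey) of each chromosome, where an arm is the outer 0.25 of the length up to the last peak. The right arm of IV is in a darker shade. IV has 58.9 per Mb on the right against 90.9 on the left, whereas the arms of every other chromosome lie close to each other.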

How the data were processed

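ChIP-seq libraries (2 ChIP, 2 input) are represented by 1 combined peak list. Per the file headers, the authors called regions with PeakSeq on WormBase WS180, and the deposited value is a q-value per peak. The sources used here do not name the aligner, the caller's version, the read filters or the way replicates were merged. Peaks were read as given, with both ends included, and the last peak set the end of IV (17463455). With 15494 tested regions, q times rank over that number equalled a one-sided binomial tail (probability 0.5) of whole reads for 11440 of 11448 peaks, with a tolerance of 1e-10 in natural logs. Of the other 8, 1 lay on IV, outside the domains. The tail was taken to include the ChIP count.

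Densities were compared by ratios with exact conditional binomial intervals, medians by order-statistic intervals and shares by Clopper-Pearson intervals. Differences combine both intervals by squares, and ratios of covered share have normal-approximation intervals on the log scale that include the spread of widths. Python 3.11.15, NumPy 2.4.6, SciPy 1.17.1 and pandas 2.3.3 were used, and the back-calculation and intervals were tested on simulated data. Peaks were named by position: in each domain the 5 with the lowest q, the 3 with the highest ratio at 100 or more ChIP reads, the widest, those next to borders, extreme 100 kb bins and the longest gaps. Other positions were chosen after their values were seen. The domains, measures and lists were chosen with earlier results of these data known. No genome of build WS180 was used, so no sequences or gene names are given.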

Additional observations from a re-analysis of the deposited data

How the results depend on the processing

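Of 132 values recomputed for 19 results, 114 stayed within the main interval, 17 left it, and 1 left it and crossed no difference. Some of the 114, and of the alternatives counted below, assigned peaks by any overlap with a domain. These could not differ from the main value, since no peak lay across a border. In all 17 values lay on the other side of no difference from the main one, 1 of them for a result whose main interval excluded no difference. For the 9 such results, 16 of 67 alternatives had an interval that included no difference. These were 4 for covered share left over right, 4 for the ratio of ChIP to control (domains minus rest), 3 for the share under 50 bp, and otherwise peaks of at least 400 bp, in the other density and covered-share results of this kind. The ratios of left to right density (1.33 to 1.66), of right domain to rest (0.582 to 0.870) and of right domain to other arms (0.560 to 0.907) kept their direction in all alternatives run. Settings with peaks of at least 400 bp or without the fullest 0.5 Mb bin of each domain, and all alternatives for each domain against the rest of IV, were chosen after seeing the data. With peaks of at least 400 bp, density over the rest of IV was 0.986 for both domains, 0.870 for the right and 1.16 for the left, the right domain had 0.907 times the density of the other arms, and covered share was 1.02 (both) and 0.962 (right). Peaks of at least 200 bp gave 0.729 for the right domain over the other arms, and a share with a neighbour 0.55 percentage points above the rest. Without the fullest bins, density was 0.673 (both), 0.808 (left) and 0.843 (left over the rest of the centre), and covered share 0.736 (both). Only the domains lost a bin there, picked by its peak count, so these densities had to fall. In the better 50% by q, domain peaks were 65.5 bp wider at the median (31.9 to 105). The share under 50 bp turned there to 0.31 points above the rest (-0.77 to 2.65). For left minus right, the median −log10 q was -2.06 (-4.58 to 0.60) and the median ratio -0.61 (-1.22 to 0.04). Except for the width, these intervals include no difference. In peaks from 300 to under 400 bp the ratio was -0.54 (domains minus rest) and 0.16 (left minus right). The cause was not tested. No paired analysis was possible because a single combined list was used, and for the same reason no library was left out. Library depth is unknown and unlisted regions are not seen.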

Other observations

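Bins with more peaks tended to have a lower median −log10 q, inside the domains and outside them. For the median ratio of ChIP to control the rank correlation was weak outside the domains. Across the 12 bins of 0.5 Mb in both domains, Spearman's rho between the number of peaks and their median ratio of ChIP to control was -0.67, and between the number of peaks and the median control 0.62. Across the 22 bins outside the domains rho was -0.14 and -0.38 for the same pairs. Pearson's r between the number of peaks and the median ratio was -0.71 in the domains and -0.56 outside. Between the number of peaks and the median −log10 q, rho was -0.64 in the domains (r -0.60) and -0.45 outside (r -0.71). The bins share the libraries and the caller's limit on q, their number is small, and the values are given as a description only. In the right domain the bin with the most peaks (41, from 16000001 to 16500000) had a median ratio of 2.89, while the bins with 18 and 19 peaks had 3.49 and 3.60.

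Some peaks of high ratio lay in the first 0.5 Mb of the left domain, with low ratios among them (2.00 at 4747656 to 4748022). Whether high ratios cluster there was not tested. The peak from 4727916 to 4728204 had a ratio of 13.4 with 94 ChIP against 7 control reads, just under the minimum of 100 ChIP reads used for ranking, and lay next to the 4725443 to 4725742 peak (ratio 8.69) and near that from 4749871 to 4750372 (ratio 9.30). At the low end, the peak from 13549293 to 13549660 in the right domain had a ratio of 1.44 with 125 ChIP against 87 control reads, the most control reads of any domain peak under 400 bp in width. These positions were chosen after their values were seen.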
